A study of Homo sapiens with 9 samples.

Results

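Transcript levels of MDA-MB-231 cells under TEPA were compared between a late time, 24 h, and an early time, 8 h, by RNA-Seq. The comparison used the 3 libraries labelled TEPA 24 h and the 3 labelled TEPA 8 h, which are 6 of the 9 libraries of the series, and its libraries were taken by labelled treatment and time. MDA-MB-231 is an established human triple-negative breast cancer (TNBC) line with a mesenchymal form, and all 9 libraries came from it. TEPA is a polyamine that chelates copper. The labels put both TEPA groups at 8 mM, while the study's RNA sequencing methods give a lower concentration, so the dose is uncertain but is labelled alike at both times. The remaining 3 libraries were untreated cells with no stated harvest time. They took no part in the test and are given only as levels. No untreated cells were matched to each time, so the time under TEPA and the time in culture cannot be told apart.

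Copper is a cofactor of cytochrome c oxidase, of superoxide dismutase and of the lysyl oxidases that crosslink collagen, and it binds to MEK1 in the ERK pathway. Cells take it up through SLC31A1, pass it on by chaperones and export it by ATP7A and ATP7B, while metallothioneins hold surplus copper and zinc.

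The 6 libraries held between 34633755 and 49342659 counted read pairs, and 16238 of 59453 gene names passed edgeR's expression filter. Along the first principal component, with 86.7% of the variance, the early and the late libraries lay on opposite sides. Libraries of one time differed from each other by a median of 0.05 to 0.08 log2 units per gene, and libraries of different times by 0.17 to 0.19. Markers that define the line (VIM, CD44, EGFR, PLAU, AXL and KRT18) summed to between 7236 and 7390 CPM (counts scaled to the library total) at 8 h and between 5562 and 5812 CPM at 24 h, with 1 of the 6 higher and 5 lower at 24 h. Among receptors and factors of luminal cells, PGR was at 0 in all 9 libraries, ESR1 stayed under the filter, and FOXA1 and GATA3 were expressed. Markers of neuroblastoma and glioma, the other tumor types of the study, summed to at most 0.339 CPM in every library.

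By edgeR's quasi-likelihood test with Benjamini-Hochberg adjustment, 1842 genes (11.3% of those tested) were higher and 1679 (10.3%) lower in the late libraries, with a limit of 0.05 on the adjusted p and of 0.5 on the absolute log2 fold change. At the adjusted p alone, 4910 genes (30.2%) were higher and 4541 (28%) were lower, and these shares are the background for the gene lists described here, which use the adjusted p alone (58.2% in either direction). With a limit of 1 on the absolute log2 fold change, 712 genes (4.38%) were higher and 580 (3.57%) lower. The median log2 fold change of all genes tested was 0.01, and the quartiles were -0.24 and 0.26. Log2 fold changes are 24 h minus 8 h throughout, with the standard error (SE) of the fit. The CPM ranges of the 2 times did not overlap for 5283 genes higher at 24 h (32.5%) and 4950 lower (30.5%), together 63% of the genes tested. These are bulk libraries, in which fewer cells of a type and less RNA per cell cannot be told apart.

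**Figure D1:**
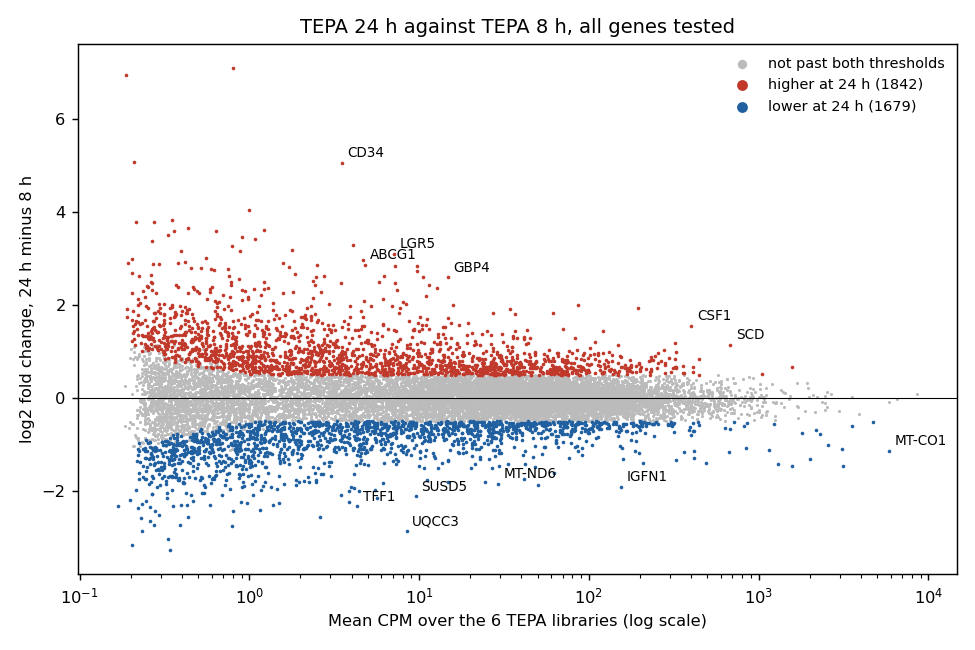
Each point is 1 of the 16238 genes tested, with its mean CPM over the 6 TEPA libraries on a log axis and its log2 fold change, 24 h minus 8 h. Red points (1842) passed both limits as higher at 24 h and blue points (1679) as lower, and CD34, LGR5 and UQCC3 are among the largest changes.

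CD34 (chr1:207880972-207911402 on hg38, minus strand) is a surface sialomucin known from blood progenitors and vessel walls. It had the highest fold change among genes that averaged 100 counts or more over the 6 libraries and whose times did not overlap. Its CPM was 0.125, 0.261 and 0.216 at 8 h and 5.92, 7.53 and 6.93 at 24 h, against 1.78, 1.32 and 1.05 in untreated cells. The late libraries stood far above both other groups, and the early ones lay below untreated cells. Its log2 fold change was 5.06, SE 0.21 (edgeR adjusted p = 1.12e-10). CD34 reached the mean of 100 counts through its 24 h libraries, with 297, 323 and 244 counts. Most other genes of this ranking also averaged under 100 counts at 8 h, but ZSCAN31 and GBP4 did not. The 8 h libraries held 5, 10 and 8 counts, so the ratio is imprecise.

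LGR5 (chr12:71439798-71586310, plus strand), a receptor for R-spondins that marks intestinal stem cells, was at 1.4, 1.85 and 1.19 CPM at 8 h and at 12, 13.1 and 13.4 CPM at 24 h. No 8 h library came near a 24 h library, and the untreated ones lay between, at 5.69, 2.54 and 3.76 CPM. The log2 fold change was 3.11, SE 0.12 (edgeR adjusted p = 6.84e-11). The genes next to it in this ranking by fold change also rose. SLC1A7, a glutamate transporter, had a log2 fold change of 3.29, PLPPR3 of 2.87, the hyaluronan-binding protein CEMIP of 2.84, the collagen COL15A1 of 2.74, the focal adhesion scaffold NEDD9 of 2.63, myoglobin (MB) of 2.62 and the zinc finger gene ZSCAN31 of 2.6. KLRC2, a receptor of natural killer cells, had one of 2.5, but 25.4% of its exon bases are shared with KLRC1 and a readthrough gene. Counts at 8 h were low for SLC1A7 (26, 39 and 22), PLPPR3 (15, 29 and 25), NEDD9 (30, 21 and 37) and MB (28, 26 and 26).

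SYT11 and SYP, both proteins of vesicle release, were in this group too. SYT11 went from 1.97, 1.46 and 1.87 CPM at 8 h to 13.9, 12.9 and 10.9 CPM at 24 h, with untreated libraries at 0.404, 0.375 and 0.691 CPM. SYP was at 1.92, 1.75 and 1.52 CPM and then at 10.7, 11.1 and 10.2 CPM, with untreated cells at 0.997, 0.640 and 1.15 CPM. For both genes, every untreated library lay below every 8 h library and every 8 h library below every 24 h library.

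PECAM1, an adhesion molecule of endothelium and platelets, was at 0.849, 1.07 and 1.24 CPM at 8 h and 7.25, 8.33 and 9.17 CPM at 24 h (log2 fold change 2.96, SE 0.14, edgeR adjusted p = 6.25e-10). CD14, the lipopolysaccharide co-receptor of myeloid cells, was at 0.923, 0.599 and 0.758 CPM and then at 3.77, 4.81 and 3.75 CPM (log2 fold change 2.43). Neither gene overlapped between the times. Of the 4 endothelial markers, PECAM1 was the only one called, and CDH5 and VWF stayed under the filter. The 4 summed to between 1.72 and 2.08 CPM at 8 h and between 7.89 and 9.68 CPM at 24 h. Of 5 leukocyte markers, CD14 was the only one tested, CD3E was at 0 in all 9 libraries, and the sum went from at most 0.948 CPM to at least 3.83 CPM. Fibroblast markers summed to between 57.1 and 61.6 CPM at 8 h and between 111 and 119 CPM at 24 h, through PDGFRB (log2 fold change 1.83), while COL1A1 was lower (-0.82) and DCN was at 0 in every library but 1, which held 4 counts. The part of other cell types in the rise of CD34, PECAM1 or CD14 was not tested.

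UQCC3 (chr11:62670273-62673686, plus strand), an assembly factor of respiratory complex III, had the lowest fold change by the same criteria. It was at 15, 14.5 and 15 CPM at 8 h and 1.93, 1.98 and 2.24 CPM at 24 h, with untreated libraries at 24.8, 29.8 and 26.1 CPM. All 3 late libraries lay far below the early ones, which were themselves below the untreated ones. The log2 fold change was -2.86, SE 0.09 (edgeR adjusted p = 1.04e-11). COQ3, a methyltransferase of coenzyme Q synthesis, fell as well, from 7.36, 7.14 and 6.68 CPM to 1.49, 1.49 and 2.41 CPM, with untreated cells at 8.27, 10.6 and 9.67 CPM (log2 fold change -2.0).

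Next to UQCC3 at the low end were the platelet receptor PEAR1 (log2 fold change -2.56), the trefoil peptide TFF1 (-2.32), the lectin CD22 (-2.23), INSYN2B (-2.14), SUSD5 (-2.1), the cation channel TRPM2 (-2.09), the thrombin receptor F2RL2 (-1.93) and the G protein subunit GNB3 (-1.91). IGFN1 was in this group as well, at 239, 227 and 270.0 CPM at 8 h and 71, 64.1 and 61.6 CPM at 24 h. Untreated libraries held 26.9, 67.1 and 46.1 CPM of IGFN1, so the early libraries were high and the late ones were back in or near that range. The unnamed loci AC148477.5 (-2.0) and AC006058.1 (-1.86) fell too. U2AF1L5 fell by 1.97 on the log2 scale, but it is a near-identical copy of U2AF1 and its 8 h libraries were spread over 4.82, 13.9 and 7.58 CPM, so its value is uncertain.

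Of the 4910 genes higher at 24 h, untreated cells had a mean CPM between the 2 times for 2601, below both for 1260 and above both for 1049. Of the 4541 lower genes, the untreated mean was between for 2072, below both for 1095 and above both for 1374. These positions are descriptions without a test.

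Interferon-stimulated genes code for sensors and effectors of antiviral defence, and they stood near the top of the lists. Of 33 tested members, 30 were higher and 1 was lower, and their median log2 fold change was 0.77, against 0.01 for all genes. CMPK2 was not tested. The promoter of many such genes holds an interferon-stimulated response element, and its letters (TTTC, 2 bases of any kind, TTTC), searched on both strands, stood within 250 bases before the start of 15 of 25 promoters of this list found in the RefSeq table (60.0%) and of 2.36% of the 10923 promoters of all tested genes. Sequences of 2 members are shown because their genes rose and hold the element, from RefSeq on GRCh38.p14, both on the plus strand, 5′ to 3′, with the matches in capitals. Whether members with the element rose more than those without it was not tested. IFIT3 is at chr10:89327747-89327996 and ISG20 at chr15:88638766-88639015.
IFIT3: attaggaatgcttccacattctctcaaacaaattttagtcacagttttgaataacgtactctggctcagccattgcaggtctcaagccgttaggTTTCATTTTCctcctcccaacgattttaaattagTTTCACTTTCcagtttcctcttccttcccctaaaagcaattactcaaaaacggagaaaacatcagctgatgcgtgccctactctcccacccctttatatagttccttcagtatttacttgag
ISG20: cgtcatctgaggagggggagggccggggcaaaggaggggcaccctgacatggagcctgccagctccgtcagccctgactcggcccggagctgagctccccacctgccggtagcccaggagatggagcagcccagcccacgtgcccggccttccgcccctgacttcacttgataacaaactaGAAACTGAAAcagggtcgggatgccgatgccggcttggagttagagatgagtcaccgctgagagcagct

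In IFIT3 the matches run from base -156 to -147 and from -122 to -113, and in ISG20 from -69 to -60, counted back from the start site. IFIT3, a partner of the RNA-binding IFIT complex, was at 55.8, 55.9 and 56.8 CPM at 8 h and at 115, 114 and 116 CPM at 24 h. The replicates of each time were nearly level, and the late ones were about at the untreated 118, 111 and 113 CPM. Its log2 fold change was 1.03, SE 0.03 (edgeR adjusted p = 1.87e-11). ISG20, an exonuclease, went from 2.45, 2.58 and 2.14 CPM to 6.78, 6.65 and 6.76 CPM, a log2 fold change of 1.49.

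The sensors and factors of this list included IFIH1 (MDA5), a detector of double-stranded RNA, at 8.71, 8.21 and 8.79 CPM at 8 h and 24.8, 26.1 and 26 CPM at 24 h (log2 fold change 1.58, SE 0.06, edgeR adjusted p = 6.95e-11). IRF1 and IRF7, the transcription factors, rose by 0.90 and 0.77 log2 units. STAT2 was called at 0.10, but lost the call in 12 of 14 alternative fits. IRF9, a DNA-binding partner of STAT2, was the single lower member at 1.65, 1.15 and 1.87 CPM and then 1.14, 0.840 and 1.02 CPM (edgeR adjusted p = 0.0215). It no longer passed when TEPA 8 h replicate 1 (adjusted p = 0.0651), TEPA 8 h replicate 3 (0.105) or TEPA 24 h replicate 2 (0.0658) was left out, and 23.9% of the exon bases of IRF9 are shared with another gene. Effectors with large rises were EPSTI1 (2.19), OAS1 (1.8), MX2 (1.46), SAMD9L (1.35) and IFIT2 (1.29), whereas IFI27 (0.12) and RSAD2 (-0.87) were not called. GBP4, an interferon-induced GTPase outside this list, was among the 15 highest fold changes, at 4.09, 3.75 and 4.68 CPM and then 25.6, 25 and 25.1 CPM.

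MHC class I genes, which load and show peptides to T cells, were higher for 12 of 15 members and lower for 1, with a median of 0.32. Peptide supply moved further than the chains themselves, with medians of 0.70 over 9 genes and 0.30 over 6, a difference that was not tested. TAP1, the peptide transporter, was at 87.3, 93.3 and 95.4 CPM at 8 h and 157, 158 and 145 CPM at 24 h (log2 fold change 0.74). TAPBP (0.81), the immunoproteasome subunit PSMB9 (0.91) and the trimming peptidase ERAP1 (0.70) rose as well. HLA-B (0.29, with 32.7% of exon bases shared with other annotated genes), HLA-C (0.38) and B2M (0.30) rose by less, and HLA-E fell by 0.19 on the log2 scale. The interferon element was in 6 of 12 promoters of this list.

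Inflammation genes had the highest list median, 0.81 over 20 tested members, with 14 higher and 3 lower. CCL5 and CCL20 were not tested. All 5 tested chemokines were higher. CXCL8, which attracts neutrophils, was at 3.44, 3.34 and 3.11 CPM at 8 h and 11.9, 15 and 13.7 CPM at 24 h, with untreated libraries spread over 18.5, 8.26 and 10.1 CPM (log2 fold change 2.03, SE 0.10, edgeR adjusted p = 8.96e-10). CXCL1 rose by 2.09 and CXCL2 by 1.07, while CXCL3 (0.63) no longer passed when TEPA 8 h replicate 1 (adjusted p = 0.0625), TEPA 8 h replicate 2 (0.0695) or TEPA 24 h replicate 2 (0.159) was left out. CCL2 had 3 to 5 counts in each 8 h library, which makes its ratio imprecise.

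CSF1 (chr1:109910242-109930992, plus strand), the growth factor of macrophages, had one of the 6 largest rises in CPM. It was at 195, 212 and 204 CPM at 8 h, at 584, 642 and 573 CPM at 24 h and at 418, 312 and 342 CPM in untreated cells, so that early libraries lay below and late libraries above the untreated range. Its log2 fold change was 1.56, SE 0.04 (edgeR adjusted p = 8.7e-12). IL6 rose from 7.59, 8.78 and 7.82 CPM to 17.1, 19.9 and 19 CPM. ICAM1, an adhesion receptor for leukocytes, rose by 1.29, and the NF-kB inhibitors NFKBIA and TNFAIP3 by 0.98 and 0.74. The IL6 family cytokines IL11 and LIF and the receptor IL6R went the other way, at -0.60, -0.28 and -0.77. Kappa-B-like letters (GGG, 5 bases of any kind, CC) were in 12 of 15 promoters of the list (80.0%) and in 69.6% of all promoters.

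Sterol genes are driven by SREBP factors when membrane cholesterol is low. Of 28 members, 19 were higher and 1 was lower, with a median of 0.39. Control genes and uptake moved more than synthesis, with medians of 0.77 over 5 genes, 1.0 over 3 genes and 0.24 over 20 genes, without a test of the difference. INSIG1, which holds SREBP in the endoplasmic reticulum, was at 24.6, 25.3 and 23.2 CPM at 8 h and 56.7, 60.9 and 58.7 CPM at 24 h. Every late library lay above the early ones and below all untreated ones, at 147, 95.3 and 121 CPM (log2 fold change 1.27, SE 0.05, edgeR adjusted p = 5.6e-11). SREBF1 (1.18) and SREBF2 (0.77), which code for the SREBP factors, rose too.

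Along the synthesis route the genes did not move as one. IDI1 (0.79), MSMO1 (0.75), FDFT1 (0.70) and DHCR7 (0.62) rose. CYP51A1 was lower (-0.32), which did not pass when TEPA 8 h replicate 3 was left out (adjusted p = 0.0628), and 68.2% of its exon bases are shared with other genes. SCD (chr10:100347233-100364826, plus strand), the fatty acid desaturase, had one of the 6 largest rises in CPM over all genes, from 407, 441 and 424 CPM at 8 h to 890.4, 998 and 934 CPM at 24 h, and untreated cells held 1849, 1146 and 1424 CPM. The sterol element TCACNCCAC was in 1 of 21 promoters of the list (4.76%) and 0.888% of all promoters.

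LXR receptors and cholesterol exporters, the opposite arm of sterol control, were also higher. Of 7 genes, 6 were higher with none lower (0 lower at an unadjusted p under 0.05 as well, and 0 by DESeq2), and the median was 0.66. The exporter ABCG1 (chr21:42199689-42297244, plus strand) was at 0.973, 1.36 and 1.11 CPM at 8 h and 7.97, 8.37 and 8.89 CPM at 24 h, with a wide untreated range of 10.3, 4.17 and 5.35 CPM (log2 fold change 2.87, SE 0.12, edgeR adjusted p = 1.91e-10). ABCA1 (0.66) and the receptor NR1H3 (0.87) followed, as did MYLIP (0.72), a list member that is neither a receptor nor an exporter. NR1H2 was not called.

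**Figure D2:**
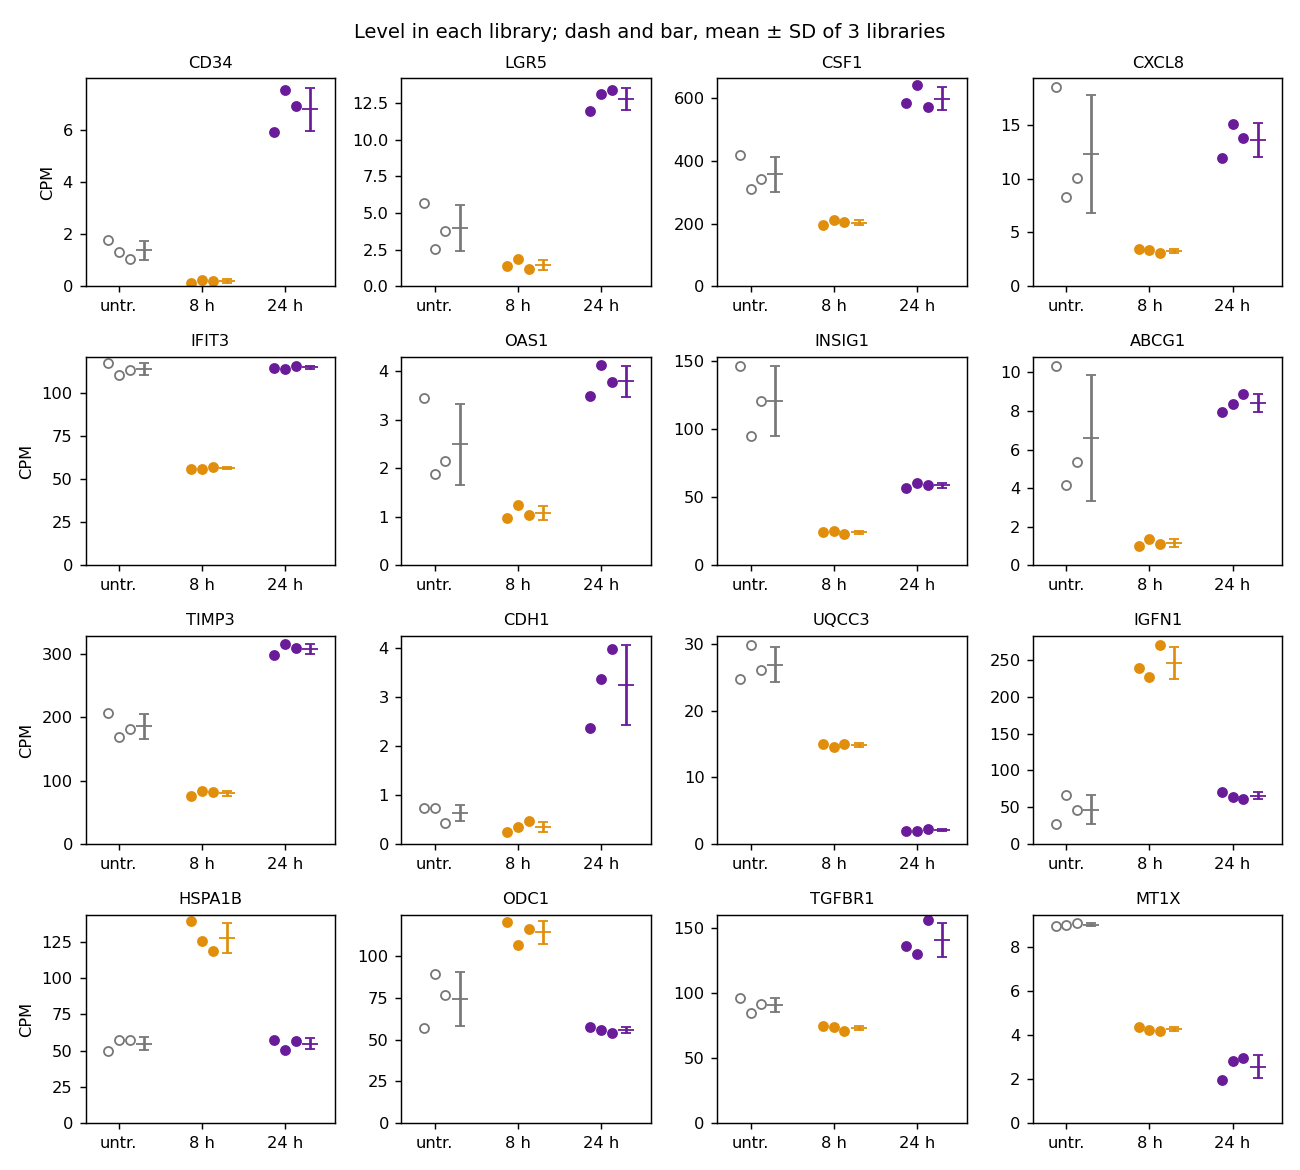
CPM of 16 genes in each of the 9 libraries, with open points for untreated cells, orange for TEPA 8 h and purple for TEPA 24 h, and with the mean ± SD of 3 libraries beside them. In each panel the 8 h and 24 h points do not overlap, and the untreated points lie between, near one of the times, or beyond both (UQCC3, INSIG1, MT1X).

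Metallothioneins are switched on by zinc and copper through MTF1. All 3 tested members fell from 8 h to 24 h, and MT1A, MT1F, MT1G, MT1H and MT1M were not tested. MT1E was at 10.9, 10.6 and 11 CPM at 8 h and 5.18, 5.11 and 5.2 CPM at 24 h, against 26.3, 25.1 and 29.5 CPM in untreated cells (log2 fold change -1.07, SE 0.07, edgeR adjusted p = 2.07e-08). MT1X went from 4.37, 4.22 and 4.19 CPM to 1.95, 2.8 and 2.95 CPM (log2 fold change -0.75), and MT2A from 93.2, 108 and 101 CPM to 69.9, 86.8 and 67.3 CPM (-0.43). For all 3 genes the order was untreated, then 8 h, then 24 h, without overlap. Over the whole metallothionein and zinc list, with MTF1 (0.27), the zinc importers SLC39A6 (0.41) and SLC39A10 (0.20) and the exporter SLC30A1 (not called), 3 of 7 tested members were higher and 3 lower, with a median of -0.04. SLC30A10 was not tested. The MT1X promoter is shown because it holds the metal response element TGCACNC more than once (capitals, from -122 to -116 and, on the other strand, from -78 to -72), on GRCh38.p14 at chr16:56682220-56682469, plus strand, 5′ to 3′.
MT1X: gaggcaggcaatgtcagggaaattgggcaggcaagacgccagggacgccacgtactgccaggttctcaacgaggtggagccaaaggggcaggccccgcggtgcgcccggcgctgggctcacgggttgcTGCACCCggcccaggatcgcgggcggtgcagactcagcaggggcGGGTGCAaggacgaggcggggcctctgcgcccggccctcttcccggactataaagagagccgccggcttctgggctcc

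That element was in 3 of 6 promoters of the list and in 9.48% of all promoters, and its other form, TGCGCNC, was also in 3 of 6 and in 26.4% of all promoters.

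Copper handling moved little. Of 15 genes, 6 were higher and 2 lower, with a median of 0.04. The importer SLC31A1 was at 92.4, 94.1 and 89.9 CPM at 8 h and 94.7, 95.1 and 95 CPM at 24 h and was not called (edgeR adjusted p = 0.305). ATP7A, which exports copper, rose from 13, 13.5 and 13.5 CPM to 18.5, 17.3 and 18.3 CPM (log2 fold change 0.43), and SLC31A2 rose by 0.35, while ATP7B was not called. SOD1 rose by 0.16 and COX17 by 0.18, and the latter did not pass when TEPA 24 h replicate 2 was left out (adjusted p = 0.0618). MEMO1 rose by 0.54 and COMMD1 changed by -0.38, and 26.5% and 33.6% of their exon bases are shared with other genes. ATOX1, the cytosolic chaperone for ATP7A, was not called (-0.04). Iron genes were 1 higher and 3 lower of 9, median -0.01, with both ferritin chains, FTH1 and FTL, at -0.28.

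Heat shock genes, chaperones induced by HSF1 when proteins misfold, were lower for 15 of 17 tested members, with none higher (0 higher at an unadjusted p under 0.05 and 0 by DESeq2) and a median of -0.39. CRYAB was not tested. HSPA8, the constitutive HSP70, was at 2948, 2878 and 2849 CPM at 8 h and 1718, 1688 and 1668 CPM at 24 h, and the untreated libraries, at 2108, 2528 and 2413 CPM, lay between (log2 fold change -0.77, SE 0.03, edgeR adjusted p = 1.65e-11). HSPA1B was at 139, 126 and 119 CPM at 8 h and within the untreated range or close to it at 24 h, with 57.5, 50.2 and 57 CPM against 49.6, 57.6 and 57.4 CPM. Its near-identical copy HSPA1A fell by 1.13 on the log2 scale, 36.6% of the HSPA1B exon bases are shared with another annotated gene, and reads of the pair can be split between them. The mitochondrial chaperone HSPD1 (-0.54), the HSP90 cochaperones CHORDC1 (-0.72) and FKBP4 (-0.56) and the HSP40 DNAJB1 (-0.59) fell, and HSPB1 and BAG3 were not called. The HSPA8 promoter holds the heat shock element (GAA, 2 bases of any kind, TTC, 2 more, GAA) at -230 to -218 and at -55 to -43 (capitals). It is read from chr11:123062137-123062386, minus strand, on GRCh38.p14, 5′ to 3′.
HSPA8: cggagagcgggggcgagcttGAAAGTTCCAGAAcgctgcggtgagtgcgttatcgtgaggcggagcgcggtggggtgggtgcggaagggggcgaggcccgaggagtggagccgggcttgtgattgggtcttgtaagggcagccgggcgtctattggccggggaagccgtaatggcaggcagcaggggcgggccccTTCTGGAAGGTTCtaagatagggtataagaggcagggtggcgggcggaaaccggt

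The element was in 2 of 15 promoters of the list (13.3%) and in 0.311% of all promoters.

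NRF2 targets, which supply glutathione and NADPH, were lower for 11 of 16 and higher for 2, with a median of -0.19. The other two members of the list, NFE2L2 (0.11), which codes for NRF2, and its repressor KEAP1 (0.13), were higher, for a list median of -0.15. Without TEPA 24 h replicate 1, NFE2L2 (adjusted p = 0.0642), KEAP1 (0.0507) and the heme oxygenase HMOX1 (0.0581) did not pass, which left 1 of the 4 higher members. SLC7A11, the cystine importer, was at 244, 214 and 219.8 CPM at 8 h and 91.3, 79.7 and 105 CPM at 24 h (log2 fold change -1.3, SE 0.07, edgeR adjusted p = 3.03e-09). PGD (-0.48), TALDO1 (-0.46), OSGIN1 (-0.70) and NQO1 (-0.31) fell. SLC7A11 is also a member of the ATF4 list, in which 9 of 24 tested genes were higher and 9 lower, median -0.01. There CTH (0.83) and STC2 (1.01) rose, PPP1R15A (-0.68), DDIT3 (-0.61) and GDF15 (-0.50) fell, and ATF4 itself, at 0.09, lost its call in 9 of 14 alternative fits. PHGDH, ALDH1L2 and CBS were not tested. ER stress genes were 8 higher and 3 lower of 21, with a median of 0.02. The chaperone HSPA5 (-0.02) was not called and SDF2L1 (-0.71) fell.

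Polyamines are small cations made from ornithine. ODC1, the first enzyme of the route, was at 121, 107 and 116 CPM at 8 h and 57.8, 55.7 and 54.1 CPM at 24 h, with untreated cells at 56.9, 89.2 and 77 CPM (log2 fold change -1.04, SE 0.05, edgeR adjusted p = 2.97e-10). SRM (-0.60) and SMS (-0.48) also fell, and AMD1 was not called. SAT1, which acetylates spermidine and spermine, was at 59.2, 56.5 and 59 CPM and then 76.3, 81.9 and 79.9 CPM, and untreated libraries, at 56.7, 39.3 and 42.2 CPM, were at or below the 8 h level. The antizymes OAZ1 (0.17) and OAZ2 (0.27) rose. Over the 10 genes 3 were higher and 3 lower, with a median of 0.06.

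The 13 protein genes of mitochondrial DNA gave the lowest list median, -1.29, with 12 lower and none higher (0 higher at an unadjusted p under 0.05 and 0 by DESeq2). They are transcribed together from a few promoters. MT-CO1, the catalytic subunit of cytochrome c oxidase, had the largest fall in CPM of all genes, from 8312, 7525 and 8343 CPM at 8 h to 3822, 3608 and 3589 CPM at 24 h (log2 fold change -1.13, SE 0.04, edgeR adjusted p = 1.82e-11). Untreated libraries were spread widely, at 3659.7, 5945 and 4307 CPM, with the first within the late range and the other two between the times. MT-ND6, the only member on the light strand, fell most, by 1.84 on the log2 scale, at 51.6, 41.6 and 43.7 CPM and then 14.6, 10.4 and 13.3 CPM. MT-ND3 was the exception, at 501, 467 and 508 CPM and 523, 484 and 515 CPM, with overlapping ranges (edgeR adjusted p = 0.321). MT-ND4 (-1.46), MT-CO3 (-1.1), MT-ATP6 (-1.31), MT-CO2 (-1.01) and the large ribosomal RNA MT-RNR2 (-0.51) made up the rest of the 6 largest falls in CPM. Mitochondrial genes took 3.61% to 4.02% of the counts at 8 h, 1.89% to 2.02% at 24 h and 1.79% to 2.91% in untreated cells.

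**Figure D3:**
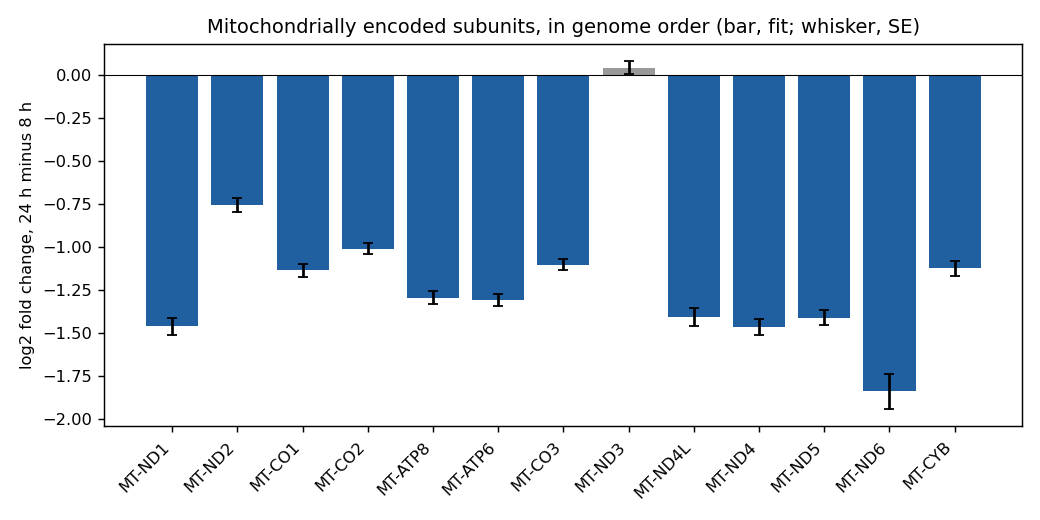
Bars are the log2 fold changes, 24 h minus 8 h, of the 13 mitochondrially encoded subunits in their order along the genome, with the SE of the fit as whiskers. The 12 blue bars were called lower, from -0.75 for MT-ND2 to -1.84 for MT-ND6, and the grey bar, MT-ND3, was not called.

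Respiratory chain subunits encoded in the nucleus were mixed. Of 77 tested, 30 were higher and 14 lower, with a median of 0.05. Complex IV, which holds copper, had 8 of 10 higher and the other two not called, and the higher ones included COX6A1 (0.38) and COX5B (0.31). Complex III and cytochrome c had 3 higher and 3 lower of 10, where CYC1 fell by 0.56 and CYCS by 0.35 on the log2 scale. Complex I had 14 higher and 8 lower of 38, complex II 1 higher of 4, and ATP synthase 4 higher and 3 lower of 15. NDUFA13 had the lowest value, -1.63, at 6.64, 5.86 and 6.36 CPM and then 2.05, 2.08 and 1.96 CPM, and 21.0% of its exon bases are shared with a readthrough gene and YJEFN3.

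Ribosome biogenesis genes, which process ribosomal RNA in the nucleolus, were lower for 19 of 26 members and higher for 1, with a median of -0.35. NOP56, a core protein of box C/D snoRNPs, was at 275, 258 and 273 CPM at 8 h and 161, 156 and 159 CPM at 24 h (log2 fold change -0.76, SE 0.03, edgeR adjusted p = 2.26e-10). BOP1 (-0.76), PES1 (-0.66), RRP9 (-0.65) and NPM1 (-0.55) fell. RNA polymerase I subunits POLR1A (-0.36), POLR1B (-0.34) and POLR1C (-0.43) fell, and UBTF was not called. Ribosomal proteins themselves were 11 higher and 35 lower of 76, but with a median of only -0.06. RPL3 (-0.36), RPL10 (-0.70) and RPS26 (-0.45) were among the lower ones, and RPL17 (-0.75) shares 32.9% of its exon bases with other genes.

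Host genes of snoRNAs and nuclear-retained RNAs were lower for 12 of 16 and higher for 2, with a median of -0.59. SNHG4 was at 63.6, 62.7 and 64.6 CPM at 8 h and 19.6, 17.5 and 19.6 CPM at 24 h, and at 22.3, 29.5 and 26.2 CPM in untreated cells (log2 fold change -1.75, SE 0.05, edgeR adjusted p = 8.7e-12). The paraspeckle RNA NEAT1 fell from 100.1, 88.2 and 94.8 CPM to 30.4, 27.3 and 34.9 CPM, and MALAT1, an RNA of nuclear speckles, from 41.2, 39.1 and 38.6 CPM to 14.4, 12 and 15.7 CPM. For MALAT1 and SNHG4 the untreated libraries were near the late ones, and the early libraries were the high ones. SNHG7 (-0.95), SNHG12 (-0.92) and SNHG1 (-0.91) fell, EPB41L4A-AS1 (0.44) rose, and the call of SNHG5 (0.10) was lost in 12 of 14 alternative fits.

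**Figure D4:**
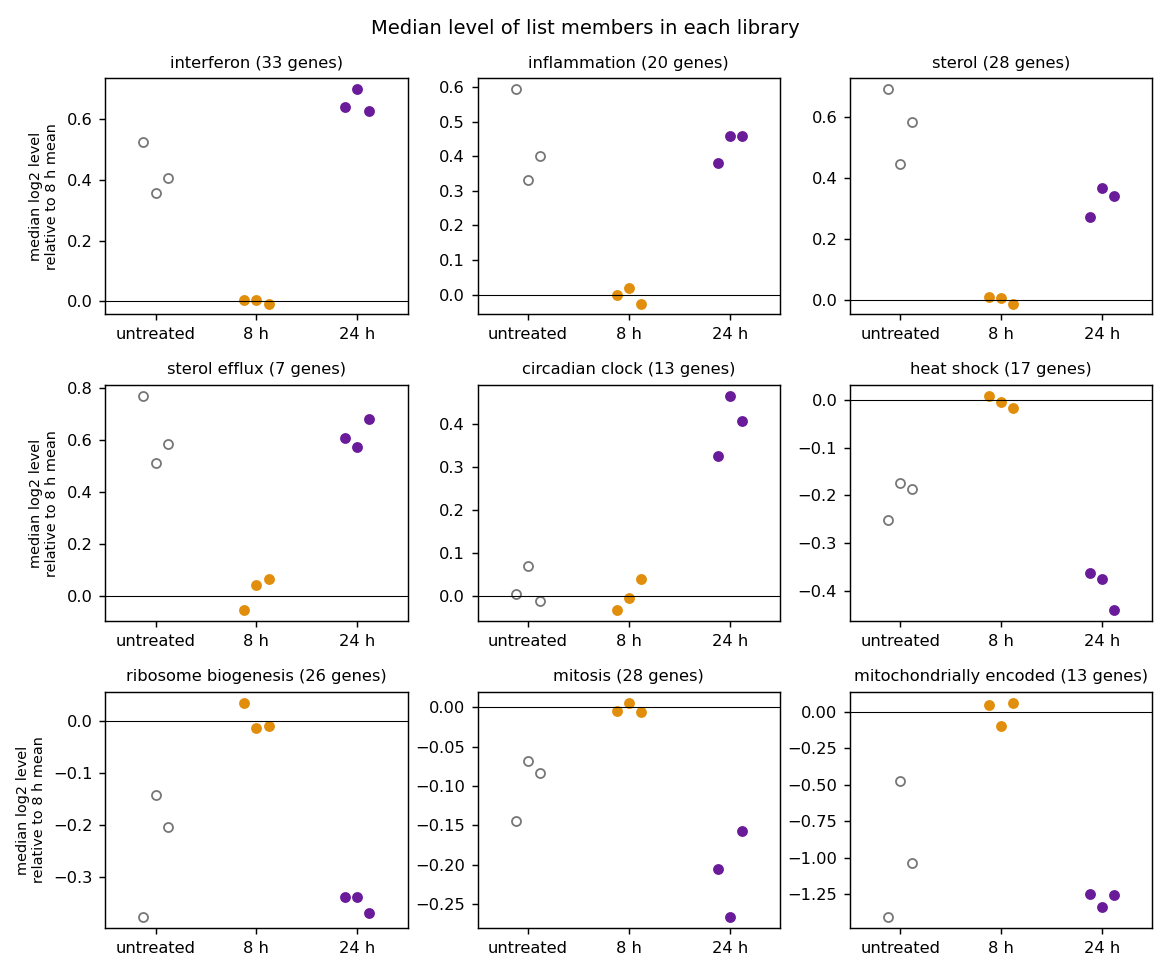
For 9 gene lists, each point is 1 library, placed at the median over list members of the log2 level relative to the 8 h mean, with untreated open, 8 h orange and 24 h purple. The interferon medians were 0.62 to 0.70 at 24 h and 0.36 to 0.52 in untreated cells, and the mitochondrially encoded medians were -1.34 to -1.25 at 24 h and -1.41 to -0.47 in untreated cells.

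Mitotic genes were lower for 20 of 28 and higher for 1, with a median of -0.20. PLK1, a kinase of mitotic entry, was at 258, 265 and 260.4 CPM at 8 h and 174, 177 and 166 CPM at 24 h (log2 fold change -0.60, SE 0.03, edgeR adjusted p = 1.97e-09), and separase, ESPL1, fell from 138, 149.9 and 146 CPM to 90.1, 94.8 and 88.7 CPM. AURKB (-0.41), CCNA2 (-0.40), CDC20 (-0.41) and MKI67 (-0.42) fell, while CCNB2, FOXM1 and BIRC5 were not called. The single higher member, HMMR (0.16), lost its call in 5 of 14 alternative fits. Mitotic promoters often hold a CCAAT box and a cell cycle genes homology region (CHR), TTTGAA. The CCAAT letters were in 19 of 22 promoters of the list (86.4%) and 35.0% of all promoters, and those of the CHR in 12 of 22 (54.5%) and 8.34%. PLK1 is shown with its CHR at -29 to -24 in capitals, from chr16:23678639-23678888, plus strand, on GRCh38.p14, 5′ to 3′.
PLK1: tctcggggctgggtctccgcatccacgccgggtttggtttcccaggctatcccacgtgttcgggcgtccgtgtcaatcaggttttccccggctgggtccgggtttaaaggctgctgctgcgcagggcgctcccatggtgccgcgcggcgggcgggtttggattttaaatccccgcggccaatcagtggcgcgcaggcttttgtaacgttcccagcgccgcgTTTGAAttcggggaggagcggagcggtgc

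DNA replication genes were mixed, with 11 higher and 13 lower of 35 and a median of -0.04. PCNA (0.38) and MCM2 (0.26) rose, and CCNE1 (-0.58), UHRF1 (-0.44) and POLE (-0.42) fell. Of 8 tested CDK inhibitors and D cyclins, 3 were higher and 3 lower, with a median of 0.01. CDKN2D rose by 0.48 and CDKN1A by 0.22, CCND1 fell by 0.25 on the log2 scale, and CDKN2A and CDKN2B were not tested.

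Among TGF-beta genes, the 5 receptors and SMADs were higher, with a median of 0.37, 5 of 6 targets and 4 of 5 inhibitors were lower, and ligands and latency genes were 2 higher and 3 lower of 6. The difference between these roles was not tested. TGFBR1, the type I receptor, was at 74.3, 73.6 and 71 CPM at 8 h and 136, 130.1 and 156 CPM at 24 h (log2 fold change 0.94, SE 0.05, edgeR adjusted p = 3.54e-09). TGFBI (-0.57), THBS1 (-0.31) and the feedback inhibitor SMAD7 (-0.57) fell, and the exceptions that rose were JUNB (1.07) and SMAD6 (0.76). Among ligands, TGFB1 fell by 0.22 on the log2 scale and TGFB2, with 22.7% of its exon bases shared with TGFB2-OT1, rose by 0.62. In all, 9 were higher and 12 lower of 22, with a median of -0.13. BMP and ID genes were 5 higher and 1 lower of 11, median 0.13 (0.05 without TEPA 24 h replicate 3), with ID2 at 0.60 and ID3 at 0.35.

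EMT genes gave 7 higher and 2 lower of 16 tested, with a median of 0.19, and TWIST1, TWIST2, ESRP1, GRHL2 and OVOL1 were not tested. CDH1 (E-cadherin), the junction protein of epithelia, was at 0.250, 0.339 and 0.460 CPM at 8 h and 2.37, 3.36 and 3.97 CPM at 24 h, and at 0.728, 0.729 and 0.435 CPM in untreated cells. Late libraries were the high ones without overlap, although the level stayed under 4 CPM (log2 fold change 3.19, SE 0.26, edgeR adjusted p = 1.25e-07). The 8 h levels were at most 0.460 CPM, so this ratio is imprecise. Of 8 tested epithelial genes, CDH1 among them, 3 were higher and 5 not called, with a median of 0.24. VIM (vimentin), a filament protein of mesenchymal cells, fell from 4428, 4319 and 4368 CPM to 3461, 3538 and 3310.1 CPM, a log2 fold change of -0.35. SNAI1 rose by 0.39, SNAI2 was lower at -0.18 and did not pass when TEPA 8 h replicate 3 was left out (adjusted p = 0.0754), ZEB1 and ZEB2 were not called, and the other mesenchymal genes rose, CDH11 by 0.58, fibronectin (FN1) by 0.22 and N-cadherin (CDH2) by 1.48, the last on 7, 4 and 5 counts at 8 h. Of the 4 mesenchymal genes 3 were thus higher, with a median of 0.40. The call of FN1 was lost with all 9 libraries in one fit (edgeR adjusted p = 0.142).

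Matrix genes were 10 higher and 12 lower of 30 tested, with a median of -0.01. COL7A1, the collagen of anchoring fibrils, was at 1103, 1127 and 1178 CPM at 8 h and 557, 536 and 537 CPM at 24 h (log2 fold change -1.06, SE 0.03, edgeR adjusted p = 8.7e-12). TNC (-1.0), COL1A1 (-0.82) and FBN1 (-0.76) fell, and COL13A1 (0.65) and COL6A1 (0.49) rose. Among the copper-dependent lysyl oxidases, LOXL4 rose from 6.01, 6.2 and 5.87 CPM to 17.1, 17.4 and 16 CPM and LOXL2 by 0.62, LOXL1 fell by 1.01 on the log2 scale, and LOX and LOXL3 were not called. FBN2 and NID1 were not tested.

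Proteases and their inhibitors were 9 higher and 5 lower of 18 tested, with a median of 0.20 (0.12 over the genes with 10 counts in every library). TIMP3, a matrix-bound inhibitor of metalloproteases, was at 75.8, 82.8 and 82 CPM at 8 h, 298, 315 and 309 CPM at 24 h and 207, 168 and 181 CPM in untreated cells (log2 fold change 1.94, SE 0.04, edgeR adjusted p = 5.57e-13). TIMP4 (1.29), TIMP2 (0.53) and the plasminogen activator PLAT (0.74) rose, and PLAU (-0.49), PLAUR (-0.23) and ADAMTS1 (-0.81) fell. MMP2 was called higher (edgeR adjusted p = 6.36e-04), but on 1, 6 and 2 counts at 8 h, at 0.0250, 0.156 and 0.0541 CPM against 0.458, 0.443 and 0.369 CPM, so its ratio is imprecise. MMP14 (0.02) and MMP9 (0.45) were not called, and MMP3, MMP7, MMP10 and MMP13 were not tested.

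Adhesion and actin genes were 7 higher and 14 lower of 25, with a median of -0.09. Of 10 integrins 5 were higher and 3 lower, and the highest values were those of ITGB4 (0.83), ITGAV (0.76) and ITGB3 (0.69, with 33.2% of exon bases shared with another gene), and of 15 focal adhesion and actin genes 2 were higher and 11 lower, among them PXN (-0.68), FLNA (-0.60) and ZYX (-0.55). The difference between the roles was not tested. FLNA, which crosslinks actin, was at 4164, 4363 and 4306 CPM at 8 h and 2839, 2891 and 2717 CPM at 24 h. YAP targets were 4 higher and 5 lower of 12, median 0.02, with AXL (-0.52), ANKRD1 (-0.40) and NT5E (-0.39) lower.

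AP-1 and early genes were 11 higher and 5 lower of 19 tested, with a median of 0.17. FOS, an early gene induced within minutes of a stimulus, was at 6.56, 1.51 and 4.33 CPM at 8 h and 21.8, 25.4 and 16.9 CPM at 24 h. The times did not overlap, but the early libraries were widely spread, as were the untreated ones at 13, 3.27 and 9.14 CPM. Its log2 fold change was 2.37, SE 0.27 (edgeR adjusted p = 3.18e-06). EGR1 (1.46), FOSB (1.79) and JUND (1.0) rose, FOSL1 (-0.78) and JUN (-0.25) fell, and MYC (-0.10) was not called. ERK output genes were 7 higher and 1 lower of 12, with a median of 0.21, among them the feedback genes SPRY1 (0.55) and DUSP1 (0.40), and EGF family ligands were 4 higher of 6 tested with none lower (0 also at an unadjusted p under 0.05 and by DESeq2), median 0.27, with AREG at 0.56 and TGFA at 0.43. For all 7 higher ERK output genes and all 4 higher ligands, untreated cells had a higher mean CPM than either TEPA time.

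Hypoxia genes gave 10 higher and 3 lower of 17, with a median of 0.32, which was 0.21 without TEPA 8 h replicate 1, 0.20 without TEPA 8 h replicate 3 and 0.18 without TEPA 24 h replicate 2. For 7 of the 10 higher and all 3 lower members, untreated cells had a higher mean CPM than either TEPA time. EGLN3, a prolyl hydroxylase that marks HIF for breakdown, rose by 0.86, EPAS1 by 0.56 and DDIT4 by 0.70. CA12, a carbonic anhydrase, was at 16.1, 14.1 and 15.2 CPM at 8 h and 6.48, 6.09 and 6.79 CPM at 24 h (log2 fold change -1.24, SE 0.08, edgeR adjusted p = 6.7e-09), ANGPTL4 fell by 0.61 on the log2 scale, and VEGFA was not called. Glycolysis was balanced, with 9 higher and 8 lower of 24 and a median of 0.02. For 7 of the 9 higher and 5 of the 8 lower glycolysis genes, the untreated mean was above both times. LDHA, which makes lactate, had one of the 6 largest rises in CPM, from 1520.2, 1504 and 1464 CPM to 1859.6, 1881 and 1897 CPM. Untreated libraries held 2087, 1892 and 1986 CPM of LDHA. The exporter of lactate SLC16A3 rose by 0.37. HK2 (-0.60), HK1 (-0.38) and ENO1 (-0.30) fell, and GAPDH was not called.

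Circadian clock genes had a median of 0.66 over 13 tested members, with 9 higher and 1 lower. PER1, a repressor of the clock, was at 20.9, 20.5 and 20.9 CPM at 8 h and 39.7, 43 and 35.7 CPM at 24 h, against 17.8, 15.8 and 17.3 CPM in untreated cells (log2 fold change 0.93, SE 0.06, edgeR adjusted p = 1.85e-08). TEF, an output factor, was at 9.93, 10.4 and 10.7 CPM and then 23.2, 23.2 and 22.8 CPM, and BHLHE41 rose by 1.22, PER3 by 0.96 and NR1D1 by 0.81. For PER1 and TEF the late libraries were high and the early ones near the untreated range. CRY2 fell by 0.30 on the log2 scale, and ARNTL, NPAS2 and PER2 were not called. RORA, CIART and HLF were not tested, the hour of day of each harvest is not stated, and its part in these values was not tested. E-box letters CACGTG were in 3 of 12 promoters of the list and 8.83% of all promoters.

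The remaining genes with a rise in CPM among the 6 largest were IGFBP4 (chr17:40443450-40457725, plus strand), which binds insulin-like growth factors, at 1155, 1233 and 1225 CPM at 8 h and 1893, 2049.8 and 1845 CPM at 24 h, together with TMSB10 and EEF1A1. Untreated libraries held 2117, 1709 and 1869 CPM of IGFBP4. TMSB10, which binds actin monomers, rose by 0.32 log2 units, to a mean of 2148 CPM at 24 h against 2333 CPM in untreated cells. EEF1A1, a translation factor, was called at a log2 fold change of 0.08, but lost the call by DESeq2 (adjusted p = 0.0509), with all 9 libraries in one fit (0.200), without TEPA 24 h replicate 1 (0.114) and without TEPA 24 h replicate 2 (0.0663).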

How the data were processed

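RNA of MDA-MB-231 cells was sequenced from stranded mRNA libraries, 9 in all, 3 untreated, 3 at 8 h and 3 at 24 h of TEPA. The authors deposited raw read counts per gene, not normalized. According to their methods, reads were checked with FastQC, aligned to hg38 with HISAT2 and counted as read pairs over exons by gene name with featureCounts and an Ensembl GRCh38 annotation, with strand used. The versions of these tools are not given in the sources used here. An mRNA kit selects polyadenylated RNA, and its part in the values of mitochondrial and nuclear RNAs was not tested.

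Gene names with enough counts by edgeR's filterByExpr (minimum count 10) were kept, 16238 of 59453, and they held at least 99.9% of the counts of each library. The 6 TEPA libraries were normalized by TMM and tested with edgeR's quasi-likelihood test (edgeR 4.0.16, limma 3.58.1, R 4.3.3) with Benjamini-Hochberg adjustment at 0.05, with and without a log2 fold limit of 0.5. The SE is the absolute log2 fold change over the square root of F. Untreated CPM was put on the same TMM scale and not tested. The labels number the replicates but do not say that they were separate cultures, so p-values measure the spread between these samples, which may be technical. An exact permutation of 3 against 3 libraries cannot go below 0.10, and none is given for single genes. Depth ran from 34633755 to 49342659 counts, and counting error is the least error of a value. The pipeline was tested on simulated data.

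Named genes were the 15 highest and 15 lowest fold changes that passed the test, averaged 100 counts or more and kept the times apart, then the 6 largest rises and 6 largest falls in mean CPM, and members of 38 lists (839 memberships, 836 genes, 798 tested). GBP4 was named by fold change. Some list members are not reported here. The comparison, the members and the lists were chosen with earlier results of these data known. Promoters came from RefSeq (GRCh38.p14), found for 10923 tested genes, and 11 motifs were searched in the 250 bases before the start, on both strands. Any link between a motif and the change of the genes that hold it was not tested. Same-strand exon overlap came from the reference annotation. Alternatives were RLE and upper-quartile normalization, DESeq2 1.42.0, other count filters, other fold limits, all 9 libraries in one fit, the replicate number as a block, mitochondrial genes left out and each library left out.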

Additional observations from a re-analysis of the deposited data

How the results depend on the processing

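The count of genes higher at 24 h than at 8 h (1842) and that of genes lower at 24 h than at 8 h (1679) moved most with the fold limit. They were 4910 and 4541 with no fold limit, and 712 and 580 with a log2 limit of 1, since fewer or more genes can pass by construction. RLE normalization gave 1801 and 1726, upper-quartile normalization 1793 and 1735, DESeq2 1656 and 1578 (with 1 adjusted p not given), no filter on low counts 2045 and 1903, at least 10 counts in every library 1565 and 1455, all 9 libraries in one fit 1716 and 1789, and leaving mitochondrially encoded genes out 1841 and 1655. Leaving out each library in turn gave 1719 to 1858 higher and 1577 to 1751 lower genes. The correlations of deviations of same-numbered libraries were 0.06, 0.16 and -0.18. With 3 libraries per time, these cannot show whether the replicate numbers pair the samples. The fit with the replicate block gave 1818 and 1635. Of 831 named genes 605 were called, and 518 of these kept call and direction in each of the 14 alternatives that fitted them. No named gene reversed. List medians close to 0 did change sign, in 7 of 14 alternatives for BCL2 family genes, 5 for CDK inhibitors and D cyclins (lowest -0.10), 3 each for matrix and ER stress genes, 2 each for glycolysis and for metallothionein and zinc genes, and 1 each for iron, YAP, ATF4 and Wnt genes. The 11 ribosomal protein genes called higher became 7 with all 9 libraries in one fit and at most 13 in any other alternative. The median of all genes shifted by at most 0.03 on the log2 scale.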

Other observations

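Lysosome and autophagy genes were 12 higher and 4 lower of 22 at 24 h of TEPA, with a median log2 fold change of 0.13 against 0.01 for all genes tested. GABARAPL1, which coats autophagosomes, was at 9.38, 9.59 and 9.66 CPM at 8 h and 29.5, 28.6 and 30.1 CPM at 24 h, with untreated cells at 16.5, 11.7 and 14 CPM. Late libraries were the high ones without overlap (log2 fold change 1.62, SE 0.06, edgeR adjusted p = 2.66e-11). The cargo receptor NBR1 rose by 0.81 and WIPI1 by 0.58, while SQSTM1 was not called and CTSL, a lysosomal protease, fell by 0.55 on the log2 scale.

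BCL2 family genes were 5 higher and 5 lower of 12 tested, with a median of 0.00. The 8 tested genes that promote apoptosis were 4 higher and 2 lower, with a median of 0.10. PMAIP1, one of the lower ones (-0.25), was not called when TEPA 8 h replicate 1 was left out. The largest changes among called members were those of BMF and BBC3, which also promote apoptosis. BMF was at 6.46, 7.22 and 6.9 CPM at 8 h and 22.9, 22.3 and 22.7 CPM at 24 h, and BBC3 (PUMA) at 3.89, 4.38 and 4.6 CPM and then 9.17, 9.59 and 10.1 CPM. Both rose, with log2 fold changes of 1.72 and 1.16, and neither overlapped between the times. Among anti-apoptotic genes BCL2L2 fell by 0.65, BCL2 by 0.34 and MCL1 by 0.26 on the log2 scale, and BCL2L1 rose by 0.30. BCL2A1, BIK and HRK were not tested.

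Wnt genes were 10 higher and 9 lower of 28 tested, with a median of 0.02. Receptors were 6 higher of 10, among them LRP5, at 165, 178 and 175 CPM at 8 h and 291, 326 and 300.2 CPM at 24 h, and 5 of 7 tested ligands and secretion genes were lower, among them WNT10B (-0.86) and PORCN (-0.75), which loads Wnt ligands with lipid. RNF43 (1.63), which removes Wnt receptors, was higher, although 68.4% of its exon bases are shared with another gene, and the inhibitor DKK1 fell by 0.63 on the log2 scale. WNT11 was not tested. Notch genes were 1 higher and 2 lower of 11 tested, with a median of -0.09, where NOTCH1 went from 85.1, 90.3 and 86 CPM to 51.2, 54.7 and 47.4 CPM and JAG1, the higher one at 0.08, lost its call in 12 of 14 alternative fits. DLL4 was not tested.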
